A study of Mus musculus with 12 samples.

Results

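The genes described here are 10 genes of glycogen handling, measured in MLO-Y4 cells that were cultured at 3 apparent gravity levels in a superconducting magnet and in control cells outside it. They are Gys1, Pygl, Pygb, Pygm, Gbe1, Ppp1r3c, Pgm1, Pgm2, Ugp2 and Slc37a4, out of 19938 genes that carry 1 symbol on the array. They were taken by name, but with earlier results of these data known. MLO-Y4 is a mouse cell line with the dendritic shape of osteocytes, derived from mice that carry a viral large T antigen under the osteocalcin promoter. Its cells were kept for 48 h at μ-g (12 T), at 1-g (16 T) or at 2-g (12 T) in the bore of the magnet, or at normal gravity outside the magnet as control. All 4 groups are of this same line. The groups in the magnet differ in the position of the plate. The bore had its own temperature and gas control, and control was incubated outside it. Comparisons with control therefore cannot tell the magnet from the culture apparatus. RNA of each group went onto 3 arrays (Affymetrix Mouse Gene 1.0 ST), 12 in all, and so few arrays limit the precision. They are biological replicates by their labels, though no source used here says that they came from separate cultures, so p-values rest on the spread between these samples alone, which may be technical. Field strength and magnetic force differ together between 1-g and the other positions in the bore, and their parts cannot be told apart.

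Glycogen is the branched glucose store of animal cells. To build it, phosphoglucomutase turns glucose 6-phosphate into glucose 1-phosphate, UDP-glucose pyrophosphorylase (Ugp2) makes UDP-glucose from it, glycogen synthase (Gys1 outside the liver) adds the glucose to a chain, and the branching enzyme (Gbe1) makes the branches. To break it down, glycogen phosphorylase, which has a liver (Pygl), a brain (Pygb) and a muscle (Pygm) isozyme, releases glucose 1-phosphate, and Ppp1r3c, a scaffold that brings protein phosphatase 1 to glycogen, turns the balance to storage.

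In brief, Gys1, Pygl, Pgm1, Slc37a4 and Ppp1r3c differed between the groups, and Pygb, Pygm, Pgm2 and Ugp2 passed in none of the comparisons. By their group means the first 4 were highest in 2-g, next in control and lowest in μ-g and 1-g, while Ppp1r3c was high in 2-g and did not pass between any of the other 3 groups. The values are log2 RMA values, on which 1 unit is a 2-fold change, and a gene is said to rise or fall where the adjusted p of limma is under 0.05 after Benjamini and Hochberg over all 19938 genes. By the F test of limma over the 4 groups, 5 of the 10 genes passed, where 3.15% of all genes did. The study had already listed these 5 genes as changed between μ-g and 2-g, from the same arrays. The 10 genes were chosen with earlier results known, so their share is not an independent test. With the replicate number as a block Gbe1 passed too (adjusted p = 0.00566), which makes 6 of 10, where 11.7% of all genes passed. On arrays of whole cultures, fewer cells that express a gene and less RNA per cell cannot be told apart. The plot of values by array shows all 10 genes.

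**Figure D1:**
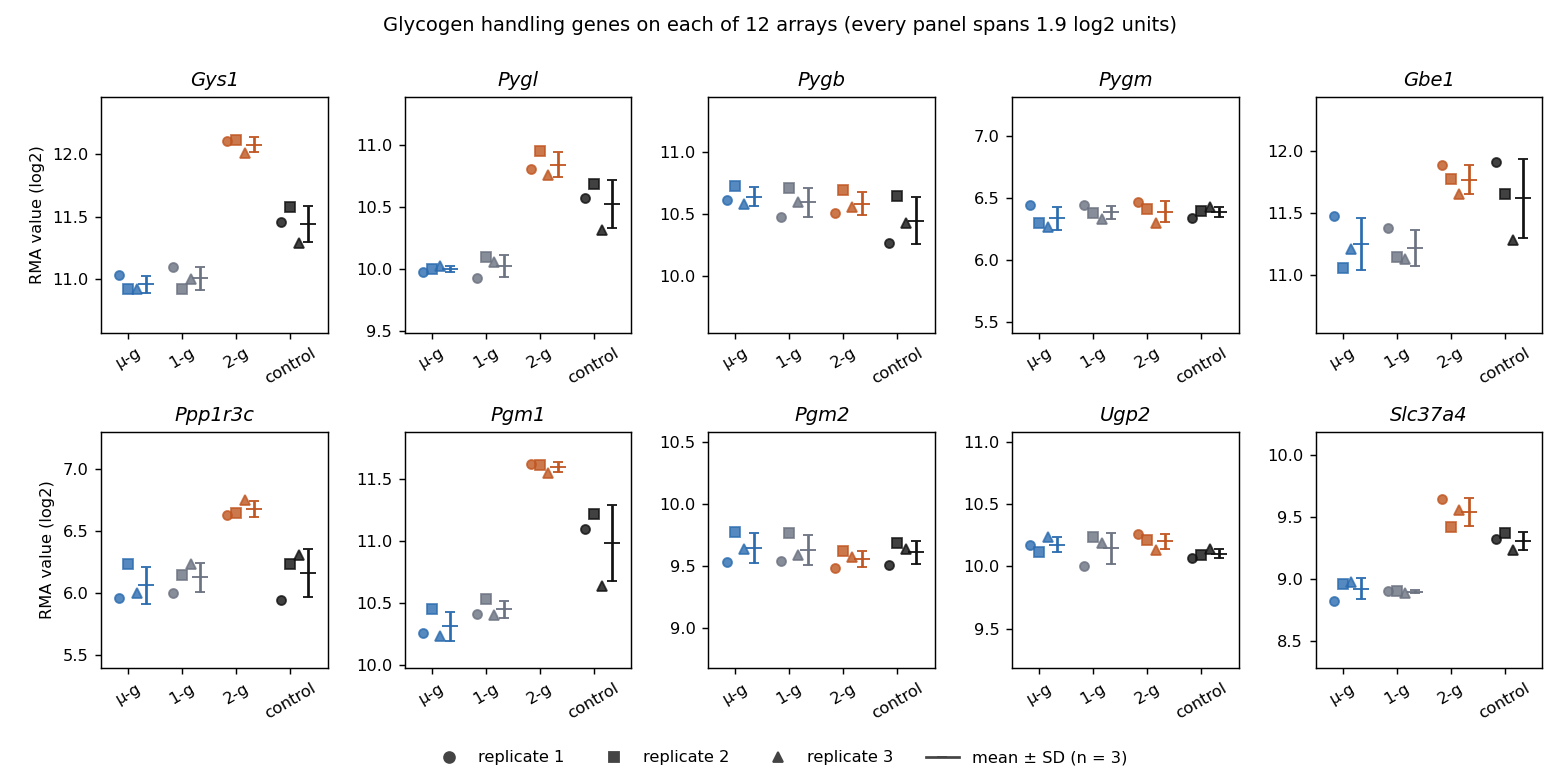
Each panel shows 1 gene, with the RMA value (log2) on the vertical axis and the groups μ-g, 1-g, 2-g and control on the horizontal axis. Symbols are the 3 arrays of a group and bars the mean ± SD. The 3 arrays of 2-g lie above those of the other groups for Gys1, Pygl, Ppp1r3c, Pgm1 and Slc37a4, and the 4 groups overlap for Pygb, Pygm, Pgm2 and Ugp2.

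The isozymes Pygl and Pygb, and the related enzymes Pgm1 and Pgm2, were taken as pairs. Each pair holds a gene that changed and a gene that passed in no comparison. The 250 bases before the transcription start of these 4 genes are shown so that the pairs can be set side by side. The sequences are those of RefSeq on GRCm38.p6, and all 10 genes were found in that table. Capitals mark ACGTG or GCGTG on either strand, which is the core of the site that hypoxia-inducible factors bind, and matches that overlap were taken as 1 site. Pgm1 lies at chr4:99929201-99929450 (plus strand), Pgm2 at chr5:64092689-64092938 (plus strand), Pygl at chr12:70227684-70227933 (minus strand) and Pygb at chr2:150786546-150786795 (plus strand).
Pgm1: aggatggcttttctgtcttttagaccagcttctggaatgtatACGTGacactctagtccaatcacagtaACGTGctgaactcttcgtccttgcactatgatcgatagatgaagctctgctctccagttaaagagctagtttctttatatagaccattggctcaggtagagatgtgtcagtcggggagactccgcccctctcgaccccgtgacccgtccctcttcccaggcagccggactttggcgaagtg
Pgm2: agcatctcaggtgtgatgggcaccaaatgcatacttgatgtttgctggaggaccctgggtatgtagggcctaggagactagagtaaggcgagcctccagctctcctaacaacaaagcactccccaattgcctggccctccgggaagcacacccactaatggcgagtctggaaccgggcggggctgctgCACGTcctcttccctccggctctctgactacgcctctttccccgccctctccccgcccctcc
Pygl: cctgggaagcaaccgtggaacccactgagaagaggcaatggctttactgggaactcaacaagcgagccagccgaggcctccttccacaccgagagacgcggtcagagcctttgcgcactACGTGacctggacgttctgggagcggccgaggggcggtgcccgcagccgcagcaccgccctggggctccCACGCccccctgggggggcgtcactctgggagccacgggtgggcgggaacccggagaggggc
Pygb: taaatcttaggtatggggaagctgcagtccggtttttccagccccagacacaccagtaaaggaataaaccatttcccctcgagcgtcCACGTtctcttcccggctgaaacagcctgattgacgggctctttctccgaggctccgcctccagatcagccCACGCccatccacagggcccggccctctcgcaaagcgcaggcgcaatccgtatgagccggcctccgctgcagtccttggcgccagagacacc
Pgm1 held 2 sites, which begin 208 and 181 bases before the start, and Pgm2 held 1 site, 62 bases before it. Pygl held 2 sites, 131 and 62 bases before the start, and Pygb held 2 sites, 163 and 92 bases before it. So both genes of each pair carried these letters. They were also found for Pygm (2 sites), Ppp1r3c (3 sites) and Ugp2 (5 sites, at 1 of its 2 starts), and not in this window of Gys1, of Gbe1 or of the 3 starts of Slc37a4. In all, 7 of 10 genes held a site, and 41.5% of the 27025 genes in the table held one at any start (38.6% of 32851 promoters of the same length). A match is only a description of the sequence.

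Among the enzymes of synthesis, Pgm1 had the largest change of the 10 genes between μ-g and 2-g. Pgm1 is the phosphoglucomutase that links glucose 6-phosphate with glucose 1-phosphate in both directions, and it carries the gene identifier 72157, which older mouse annotation calls Pgm2. It was at 10.26, 10.45 and 10.23 in μ-g, at 10.42, 10.53 and 10.41 in 1-g, at 11.62, 11.62 and 11.55 in 2-g and at 11.09, 11.22 and 10.64 in control (log2, replicates 1, 2 and 3). The 2-g arrays were above all others, the μ-g and 1-g arrays overlapped each other and lay below all control arrays, and control replicate 3 was the lowest of the control arrays. Pgm1 fell in μ-g relative to 2-g, named set 4, by 1.28 log2 units (SE 0.12, adjusted p = 0.000161), which is 0.411-fold. Against control it rose by 0.61 in set 2 (2-g v.s. control, SE 0.12, adjusted p = 0.0197) and fell by 0.67 in set 1 (μ-g v.s. control, SE 0.12, adjusted p = 0.0326). In set 3 (1-g v.s. control) the change was −0.53 (SE 0.12) with an adjusted p of 0.0989, and 0.0192 with the replicate number as a block. Without control replicate 3 the change was −0.84 in set 1 (adjusted p = 0.00105) and −0.71 in set 3 (adjusted p = 0.00373). The call of set 2 was lost without any one of the 2-g arrays (adjusted p up to 0.0684), and that of set 1 without μ-g replicate 1 or 3, 2-g replicate 3 or control replicate 1 or 2 (adjusted p up to 0.145).

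Pgm2, a related enzyme known mainly as a phosphopentomutase, was at 9.53, 9.77 and 9.63 in μ-g, at 9.53, 9.76 and 9.59 in 1-g, at 9.48, 9.62 and 9.57 in 2-g and at 9.51, 9.69 and 9.63 in control. Replicate 2 was the highest array in each group, and all groups overlapped. The change of Pgm1 minus that of Pgm2 was −1.37 in set 4 (95% interval −1.70 to −1.04), −0.71 in set 1 (−1.03 to −0.38) and 0.67 in set 2 (0.34 to 0.99), so the genes of this pair changed by unequal amounts. Such differences between genes come from a linear model on the array values and were looked at after the values were seen.

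Ugp2, the enzyme that makes UDP-glucose, was at 10.18, 10.11 and 10.24 in μ-g, at 10.01, 10.24 and 10.19 in 1-g, at 10.26, 10.21 and 10.14 in 2-g and at 10.07, 10.10 and 10.14 in control. No group stood apart from the others. Its changes in the 6 comparisons of groups, with those of Pygb, Pygm and Pgm2, ran from −0.07 to 0.19, with 95% intervals between −0.24 and 0.39 and no adjusted p of limma below 0.380.

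Gys1, the glycogen synthase of muscle and most other tissues, was at 11.03, 10.91 and 10.92 in μ-g, at 11.10, 10.91 and 10.996 in 1-g, at 12.11, 12.12 and 12.01 in 2-g and at 11.46, 11.58 and 11.29 in control. The order was the same as for Pgm1, with every 2-g array above, and every μ-g and 1-g array below, the control arrays. Gys1 fell by 1.12 in set 4 (SE 0.07, adjusted p = 2.76e-05), to 0.458-fold of the 2-g level. It rose by 0.64 in set 2 (SE 0.07, adjusted p = 0.00247), and this call held with each of the 12 arrays left out in turn (adjusted p up to 0.0138). In set 1 it fell by 0.49 (SE 0.07, adjusted p = 0.0196) and in set 3 by 0.44 (SE 0.07, adjusted p = 0.0396). The call of set 1 was lost without μ-g replicate 1 or 3 or control replicate 1 or 2 (adjusted p up to 0.0989), and that of set 3 held without μ-g replicate 2 or control replicate 3 and was lost without any other array (adjusted p up to 0.145). Ugp2 acts one step before it, and the change of Gys1 minus that of Ugp2 was −1.10 in set 4 (95% interval −1.37 to −0.83).

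Gbe1, the branching enzyme, was at 11.48, 11.06 and 11.21 in μ-g, at 11.38, 11.15 and 11.13 in 1-g, at 11.89, 11.78 and 11.65 in 2-g and at 11.92, 11.65 and 11.29 in control. Replicate 1 was the highest array in each group. The 2-g arrays lay above all μ-g and 1-g arrays, but the control arrays overlapped every group. The change was −0.52 in set 4 (SE 0.15, adjusted p = 0.0826) and 0.55 in 2-g v.s. 1-g (SE 0.15, adjusted p = 0.0777). With the replicate number as a block the adjusted p was 0.00494 in set 4 and 0.00444 in 2-g v.s. 1-g, and in set 3, where the change was −0.40, it was 0.0488 with the block and 0.331 without it. Without control replicate 3, which enters these comparisons only through the shared spread, the adjusted p was 0.0408 in set 4 and 0.0358 in 2-g v.s. 1-g, and without control replicate 1 it was 0.0469 in 2-g v.s. 1-g. In set 2 the change was 0.15 with a 95% interval of −0.16 to 0.47.

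Ppp1r3c, the scaffold also known as protein targeting to glycogen, was at 5.96, 6.24 and 5.999 in μ-g, at 6.003, 6.15 and 6.24 in 1-g, at 6.63, 6.65 and 6.75 in 2-g and at 5.95, 6.23 and 6.31 in control. Only the 2-g arrays stood apart. These values lie below 7.50, the median level over all genes, so the gene was dim on this array. Ppp1r3c fell by 0.61 in set 4 (SE 0.10, adjusted p = 0.00738) and rose by 0.51 in set 2 (SE 0.10, adjusted p = 0.0196), while its change was −0.10 in set 1 (95% interval −0.31 to 0.12) and −0.03 in set 3 (−0.25 to 0.18). The call of set 2 was lost without 2-g replicate 2 or 3 or control replicate 1 (adjusted p up to 0.093). In 2-g v.s. 1-g it rose by 0.55 (adjusted p = 0.0162), and that call was lost without 1-g replicate 1 or 2-g replicate 3 (adjusted p up to 0.0763).

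Of the 3 phosphorylases, which open the way of breakdown, only the liver isozyme passed. Pygl was at 9.97, 9.996 and 10.03 in μ-g, at 9.92, 10.09 and 10.06 in 1-g, at 10.80, 10.95 and 10.76 in 2-g and at 10.57, 10.69 and 10.31 in control. The 2-g arrays were all above the control arrays and these all above the μ-g and 1-g arrays, with control replicate 3 again the lowest of its group. Pygl fell by 0.84 in set 4 (SE 0.09, adjusted p = 0.000292), by 0.53 in set 1 (SE 0.09, adjusted p = 0.0273) and by 0.50 in set 3 (SE 0.09, adjusted p = 0.0396). In set 2 the change was 0.31 (SE 0.09) with an adjusted p of 0.0785, 0.0258 with the replicate number as a block, and 0.0346 without control replicate 2. The call of set 1 was lost without μ-g replicate 1 or 3 or control replicate 1 or 2 (adjusted p up to 0.118), and that of set 3 held only without 2-g replicate 2 or control replicate 3 (adjusted p up to 0.145 without another array).

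Pygb, the brain isozyme, was at 10.61, 10.72 and 10.58 in μ-g, at 10.48, 10.71 and 10.60 in 1-g, at 10.51, 10.69 and 10.55 in 2-g and at 10.27, 10.64 and 10.43 in control. Pygm, the muscle isozyme, was at 6.45, 6.30 and 6.27 in μ-g, at 6.44, 6.38 and 6.33 in 1-g, at 6.47, 6.41 and 6.30 in 2-g and at 6.34, 6.39 and 6.43 in control. The groups overlapped for both genes, and Pygm was dim, below the median level of all genes on every array. The change of Pygl minus that of Pygb was −0.89 in set 4 (95% interval −1.12 to −0.67), −0.72 in set 1 (−0.94 to −0.49) and 0.82 in 2-g v.s. 1-g (0.60 to 1.05), but in set 2 it was 0.18 with an interval that holds 0 (−0.05 to 0.40). Against Pygm, the difference in set 4 was −0.78 (−1.07 to −0.50).

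Gys1 and Pygl, which act in opposite directions on the glycogen chain, moved the same way in every set where both passed. The change of Gys1 minus that of Pygl was 0.04 in set 1 (95% interval −0.17 to 0.24), −0.29 in set 4 (−0.49 to −0.08) and 0.32 in set 2 (0.12 to 0.53). Thus the log2 array value of Gys1 changed more than that of Pygl where 2-g was compared, and no such difference was detectable between μ-g and control. Whether the RNA amounts of these genes changed unequally was not tested.

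Slc37a4 carries glucose 6-phosphate into the endoplasmic reticulum, where it is split to glucose in tissues that release glucose. It was at 8.82, 8.96 and 8.97 in μ-g, at 8.90, 8.90 and 8.88 in 1-g, at 9.64, 9.42 and 9.56 in 2-g and at 9.32, 9.37 and 9.23 in control. As for Gys1, the 2-g arrays were above and the μ-g and 1-g arrays below all control arrays. Slc37a4 fell by 0.62 in set 4 (SE 0.06, adjusted p = 0.000292), by 0.38 in set 1 (SE 0.06, adjusted p = 0.0273) and by 0.41 in set 3 (SE 0.06, adjusted p = 0.0318). In set 2 the change was 0.23 (SE 0.06), with an adjusted p of 0.076, 0.0542 with the replicate number as a block, and 0.0483 without 2-g replicate 2. The call of set 1 was lost without μ-g replicate 1 or 3 or control replicate 1 or 2 (adjusted p up to 0.12), and that of set 3 was lost without μ-g replicate 3, any one of the 1-g arrays, 2-g replicate 3 or control replicate 1 or 2 (adjusted p up to 0.134).

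**Figure D2:**
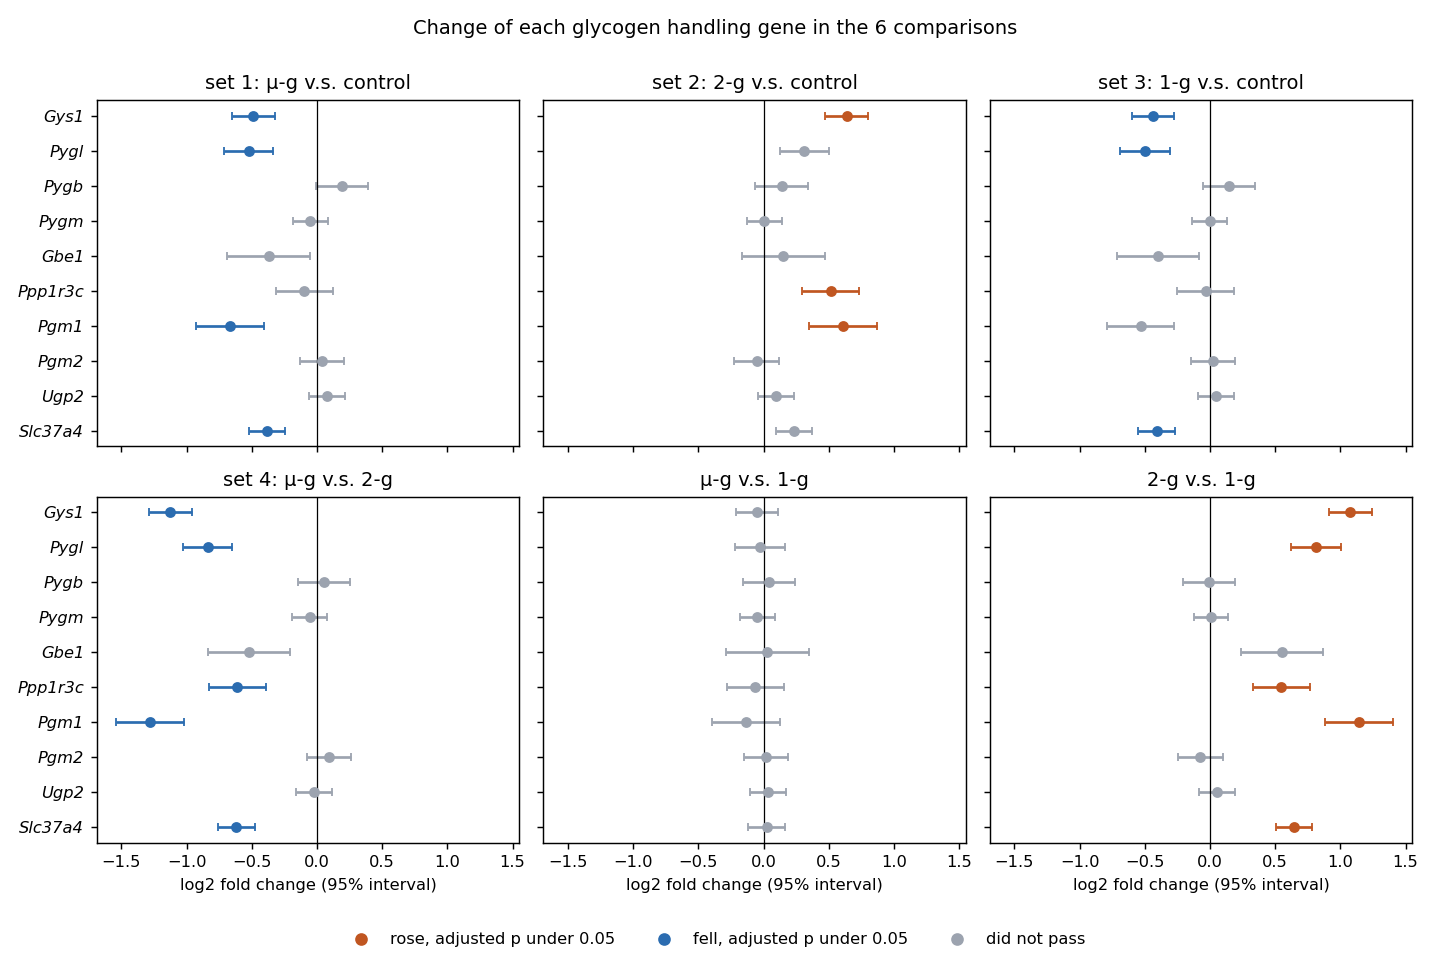
The horizontal axis is the log2 fold change of the first named group over the other, with its 95% interval, and each row is 1 gene. Blue and orange points fell or rose at an adjusted p of limma under 0.05, and grey points did not pass. Set 4 and 2-g v.s. 1-g have 5 coloured points each, and μ-g v.s. 1-g has none.

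The counts per comparison show where these genes differed. In set 4, 5 of 10 fell and none rose, where 1.49% of all genes fell. The study lists the same 5 genes in set 4 under glucose metabolic process, so this share was partly known in advance. The median change of the 10 genes was −0.57, against 0.03 over all genes. With the replicate number as a block 6 fell, where 3.90% of all genes fell. The 5 calls made without the block (Gys1, Pygl, Ppp1r3c, Pgm1 and Slc37a4) held with each of the 12 arrays left out in turn, with an adjusted p up to 0.0422 for Ppp1r3c.

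In 2-g v.s. 1-g, 5 of 10 rose (Gys1, Pygl, Ppp1r3c, Pgm1 and Slc37a4) and none fell, where 1.26% of all genes rose, and the median change was 0.55, against −0.02 over all genes. Pgm1 rose by 1.14 (2.21-fold, SE 0.12, adjusted p = 0.00041), Gys1 by 1.08 (2.11-fold, SE 0.07, adjusted p = 5.2e-05), Pygl by 0.81 (SE 0.09, adjusted p = 0.00044) and Slc37a4 by 0.64 (SE 0.06, adjusted p = 0.000343). With the block 6 rose, where 3.21% of all genes rose. Set 4 and this comparison share the 2-g arrays, so they are not independent of each other.

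Against control the counts were smaller. In set 1, 4 of 10 fell (Gys1, Pygl, Pgm1 and Slc37a4), where 0.386% of all genes fell, and the median change was −0.23, against 0.02 over all genes. Of these the study lists Pgm1 in set 1 under glucose metabolic process. None of the 10 passed when μ-g replicate 1, μ-g replicate 3, control replicate 1 or control replicate 2 was left out. In set 3, 3 of 10 fell (Gys1, Pygl and Slc37a4), where 0.145% of all genes fell, and the median change was −0.22, against 0.02. With the block 5 fell in set 3, where 0.737% of all genes fell. Without μ-g replicate 3, any one of the 1-g arrays, 2-g replicate 3, control replicate 1 or control replicate 2, none passed in set 3, and without μ-g replicate 1 or 2-g replicate 1 only Slc37a4 did. Without μ-g replicate 2 or 2-g replicate 2 there were 2, and without control replicate 3 there were 4, with Pgm1. In set 2, 3 of 10 rose (Gys1, Ppp1r3c and Pgm1), where 1.68% of all genes rose, and the median change was 0.19, against −0.00. With the block 4 rose, where 5.06% of all genes rose, and without 2-g replicate 3 only Gys1 passed. Set 1, set 2 and set 3 share the 3 control arrays. The study's methods set limits of 1.5-fold and of P without saying whether P was adjusted. Above 1.5-fold at a P read here as unadjusted and under 0.05, 5 of the 10 genes were down in set 4 (0.597% of all genes) and 1 in set 1 (0.181%), none was down in set 3 (0.135%), and 4 were up in 2-g v.s. 1-g (0.552%) and 2 in set 2 (0.331%).

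The comparison of μ-g with 1-g called none of the 10 genes. Limma called 0.00% of all genes there, and at an unadjusted p under 0.05 it took 460 genes, none of them among the 10. A plain test of each gene by itself with equal variances, which shares no spread between genes, took 483 genes at an unadjusted P under 0.05 and 0 after Benjamini-Hochberg, none of them among the 10 either. The changes ran from −0.14 to 0.04, with 95% intervals between −0.40 and 0.35 and no unadjusted p below 0.275. Smaller differences between these positions were not detectable with 3 arrays each.

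**Figure D3:**
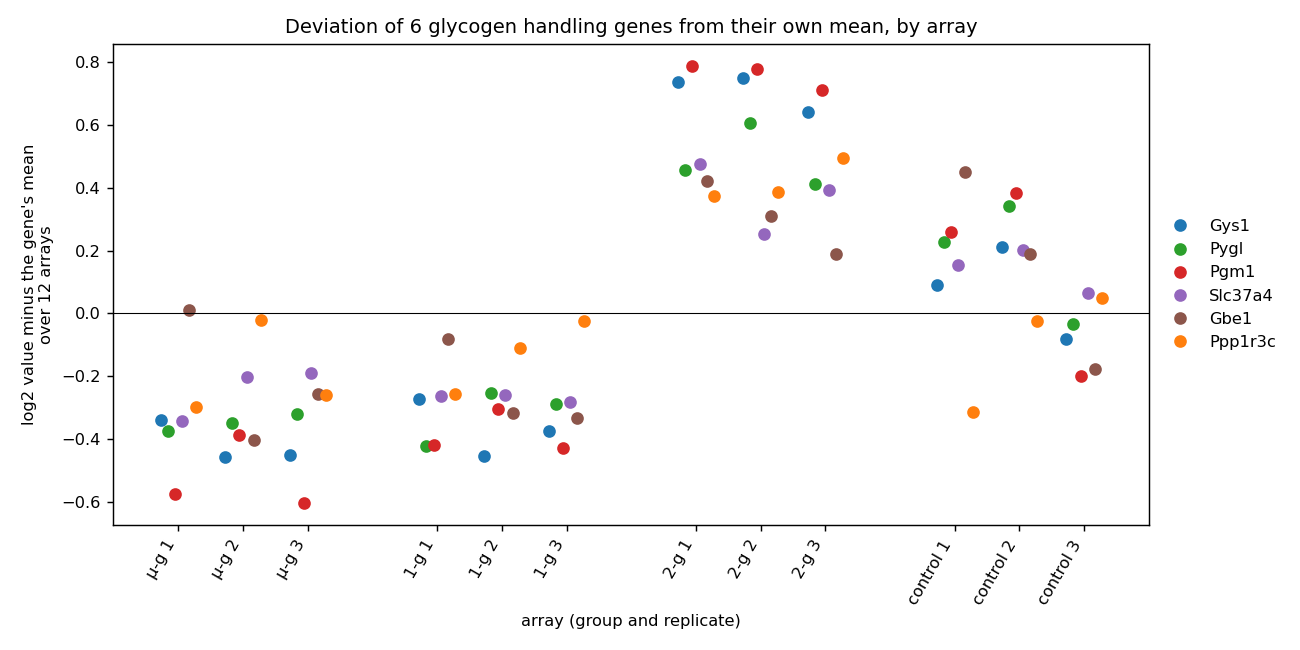
The vertical axis is the log2 value minus the mean of that gene over the 12 arrays, and the horizontal axis lists the arrays by group and replicate, with 1 colour for each of 6 genes. All points of 2-g are above 0, those of Gys1, Pygl, Pgm1 and Slc37a4 are below 0 in μ-g and 1-g, and control replicate 3 is lower than the other control arrays for Gys1, Pygl, Pgm1, Slc37a4 and Gbe1.

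The control arrays varied most. That group had the widest range of values for 6 of the 10 genes, 0.58 for Pgm1 and 0.63 for Gbe1, and control replicate 3 was the lowest control array for 5 of them (Gys1, Pygl, Gbe1, Pgm1 and Slc37a4). Over the 12 arrays, Pearson's r between the 5 genes that passed the F test ran from 0.739 to 0.977 in 10 pairs, the highest for Pygl with Pgm1. These values mostly describe the differences between groups. Of the deviations from the group means alone, r ran from −0.468 to 0.806. The genes share the same arrays, and these values are a description.

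The genes whose pattern over the 12 arrays was most like that of a member are named next, 3 for each of the 5 genes. Pgm1 was closest to Pfkl, the liver-type phosphofructokinase (r = 0.995), Bnip3 (0.992) and Pdk1, a kinase of pyruvate dehydrogenase (0.992). For Gys1 they were Gpr35 (0.991), the lysyl hydroxylase Plod1 (0.983) and Stc1 (0.981). For Pygl they were Selenbp1 (0.990), Higd1a (0.989) and Tmem45a (0.989). Slc37a4 was closest to Grhpr, Pgam1, a phosphoglycerate mutase of glycolysis, and Egln1, a prolyl hydroxylase (0.967, 0.967 and 0.967). Ppp1r3c had the weakest likeness, with Cd248 (0.950), Egln3 (0.947) and E430018J23Rik (0.947). Of the deviations from group means alone, r was 0.988 for Pgm1 with Bnip3, and 0.513 for Slc37a4 with Egln1. The 12 arrays share their 4 groups, so a high r mainly says that the group means have the same order.

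The other genes of the pathway were taken as 6 lists. Of 61 listed genes, 54 were measured with 1 symbol, and 4 of them passed in set 4, where 2.88% of all genes passed in either direction. With the replicate number as a block, 4 of the 54 passed in set 2 (9.38% of all genes), 2 in set 3 (1.77%), 6 in set 4 (9.18%) and 8 in 2-g v.s. 1-g (7.57%), against 2, 1, 4 and 3 without it. Without the block, the 2 genes of set 2 rose, where 1.68% of all genes rose. The 3 genes of 2-g v.s. 1-g rose too, where 1.26% of all genes rose. The 1 gene of set 3 also rose, and the share of all genes that rose there is not given. Among the other glycogen enzymes and scaffolds, 2 of 12 fell in set 4 (1.49% of all genes) and none rose, and 3 fell with the block (3.90%). Without it they were Epm2a, which encodes laforin, the phosphatase that takes phosphate off glycogen, and Ppp1r3b, the scaffold of protein phosphatase 1 known from liver. The study already lists Epm2a in set 4 under glucose metabolic process, from the same arrays. Epm2a averaged 6.01 ± 0.09 in μ-g, 5.91 ± 0.05 in 1-g, 6.82 ± 0.11 in 2-g and 6.42 ± 0.36 in control (SD, n = 3), fell by 0.81 in set 4 (SE 0.13, adjusted p = 0.00791) and rose by 0.91 in 2-g v.s. 1-g (adjusted p = 0.00469). Ppp1r3b averaged 7.04 ± 0.09 in μ-g, 7.001 ± 0.06 in 1-g, 7.44 ± 0.04 in 2-g and 7.18 ± 0.20 in control, fell by 0.40 in set 4 (SE 0.09, adjusted p = 0.0312) and rose by 0.44 in 2-g v.s. 1-g (adjusted p = 0.0224). In set 2 its change was 0.26 (adjusted p = 0.131, and 0.0452 with the block). Ppp1r3g, another scaffold of protein phosphatase 1, had a change of −0.35 in set 4 (adjusted p = 0.101, and 0.0137 with the block). Not all scaffolds were highest in 2-g, since Ppp1r3d averaged 7.13 ± 0.10 in μ-g, 7.22 ± 0.12 in 1-g, 7.09 ± 0.06 in 2-g and 7.17 ± 0.07 in control and passed in no comparison, with or without the block. Gaa, of the same list, had a change of 0.30 in set 3 (adjusted p = 0.114, and 0.0159 with the block). In 2-g v.s. 1-g its change was −0.19 (adjusted p = 0.219, and 0.0394 with the block). These signs are opposite to those of the members that passed there. The change of Gaa was 0.26 in set 1, 0.15 in set 4 and 0.11 in set 2, and none of these passed without the block. Gyg, the protein primer of glycogen, and Gys2, the liver synthase, passed in no comparison.

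Among the kinases and the phosphatase that act on glycogen enzymes, 1 of 16 passed in set 4 (2.88% of all genes), and 2 with the block (9.18%). Prkab2, a beta subunit of AMP-activated kinase, averaged 8.92 ± 0.05 in μ-g, 8.91 ± 0.08 in 1-g, 9.33 ± 0.15 in 2-g and 8.997 ± 0.10 in control. It fell by 0.42 in set 4 (SE 0.08, adjusted p = 0.0159) and rose by 0.34 in set 2 (adjusted p = 0.0399) and by 0.42 in 2-g v.s. 1-g (adjusted p = 0.0172), and the call of set 2 was lost without control replicate 3 (adjusted p = 0.138). Prkab1, the other beta subunit, passed in no comparison, and its change in set 4 was −0.09 (adjusted p = 0.71). Prkaa2, a catalytic subunit of the same kinase, averaged 8.07 ± 0.26 in μ-g, 8.04 ± 0.12 in 1-g, 7.66 ± 0.11 in 2-g and 7.74 ± 0.23 in control. Its change was 0.41 in set 4 (adjusted p = 0.129, and 0.00534 with the block) and −0.38 in 2-g v.s. 1-g (adjusted p = 0.18, and 0.00892 with the block), opposite in sign to those of Prkab2. Without the block, none of the 5 subunits of phosphorylase kinase, which switches phosphorylase on, and none of the 5 other phosphohexomutases passed in any comparison. With it Pgm2l1, a phosphohexomutase that makes glucose 1,6-bisphosphate, passed in set 2, where its change was 0.25 (adjusted p = 0.0606, and 0.0322 with the block). Pgm2l1 passed with the block in set 1 as well, with a change of 0.27 (adjusted p = 0.0808, and 0.039 with the block). So did Phka1, a subunit of phosphorylase kinase, with a change of 0.22 (adjusted p = 0.0551, and 0.0308 with the block). The replicate numbers did not pair the samples of set 1 by the rule used.

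In the handling of glucose 6-phosphate, H6pd, the hexose 6-phosphate dehydrogenase of the endoplasmic reticulum, was the 1 gene of 10 to pass without the block. It passed in set 2, where 1.68% of all genes rose. It averaged 11.53 ± 0.08 in 2-g and 11.23 ± 0.10 in control, a rise of 0.30 in set 2 (SE 0.06, adjusted p = 0.0259) that was lost without control replicate 3 (adjusted p = 0.071). G6pc and G6pc2, catalytic subunits that split glucose 6-phosphate behind the Slc37a4 transporter, passed in no comparison and averaged at most 5.61 and 5.39 in any group, below the median level of all genes. G6pc3, the catalytic subunit of most other tissues, was bright, with averages of 11.82 in μ-g, 11.85 in 1-g, 11.85 in 2-g and 11.88 in control, and passed in no comparison either. Hk2, a hexokinase that makes glucose 6-phosphate, had a change of 0.34 in 2-g v.s. 1-g (adjusted p = 0.157, and 0.0214 with the block). Hk1, the hexokinase that the study lists in set 4 under glucose metabolic process, passed in no comparison in the cluster taken here. Its change in set 4 was −0.10 (adjusted p = 0.716, and 0.264 with the block). Among the users of UDP-glucose, 1 of 6 passed without the block, in set 1, set 3 and set 4 (2.88% of all genes in set 4). Uggt1, which adds glucose to misfolded glycoproteins, averaged 11.09 ± 0.06 in μ-g, 11.03 ± 0.02 in 1-g, 10.87 ± 0.08 in 2-g and 10.74 ± 0.03 in control. It rose by 0.35 in set 1 (adjusted p = 0.0166), by 0.29 in set 3 (adjusted p = 0.0396) and by 0.22 in set 4 (adjusted p = 0.0437), a direction opposite to that of the glycogen genes, and without control replicate 3 the adjusted p was 0.0375, 0.0929 and 0.0614 in these sets. In 2-g v.s. 1-g its change was −0.16 (adjusted p = 0.147, and 0.0449 with the block).

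**Figure D4:**
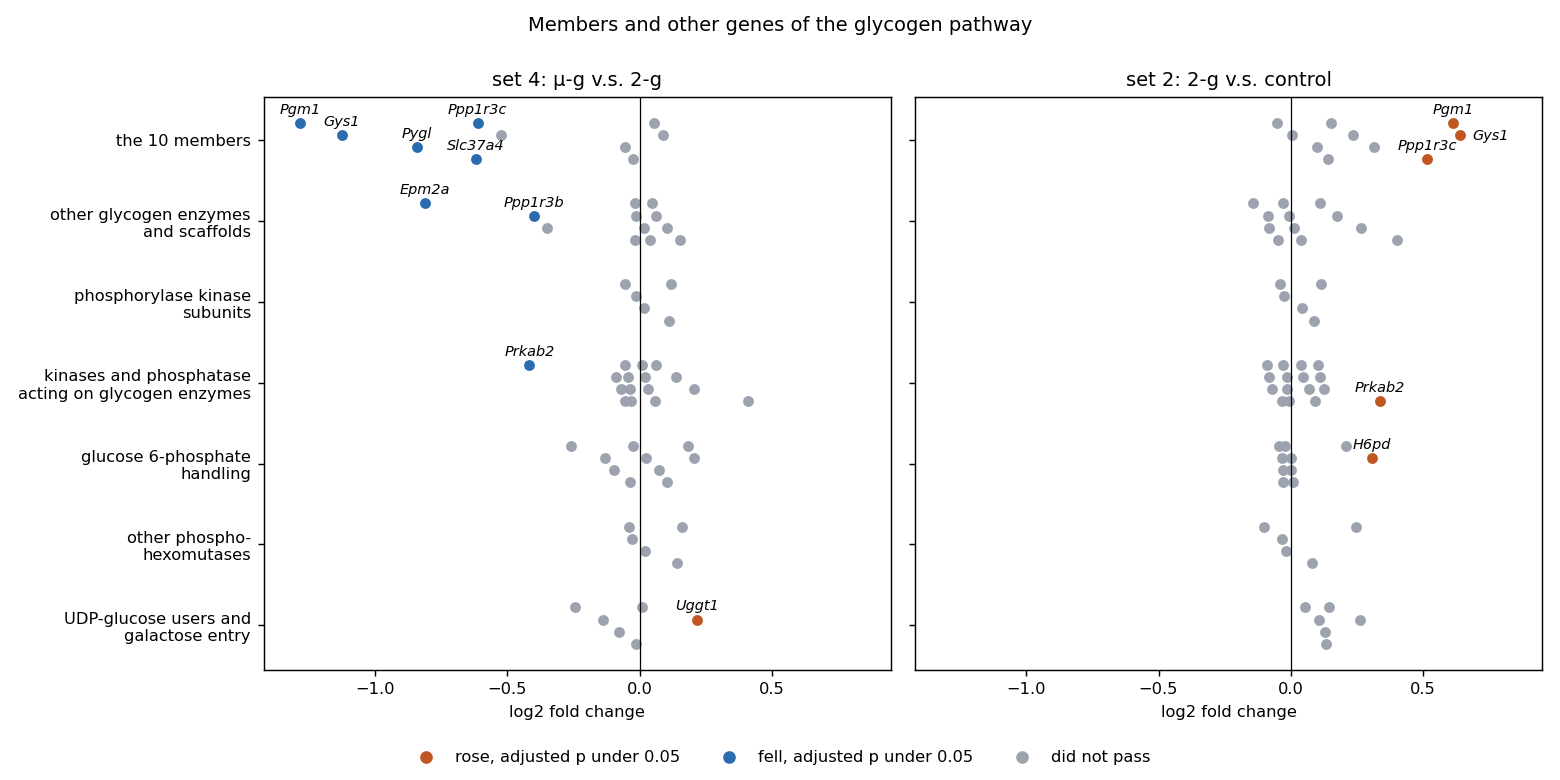
Each point is 1 gene, placed by its log2 fold change on the horizontal axis for set 4 (left) and set 2 (right), with the 10 genes in the top row and the 6 lists of other pathway genes under it. Named points passed at an adjusted p under 0.05 without the replicate block. Of the 54 other genes, 4 passed in set 4 (2.88% of all genes) and 2 rose in set 2 (1.68% of all genes rose).

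Concerning the series as a whole, the medians of the 12 arrays ran from 7.04 to 7.12, and Pearson's r between arrays across all transcript clusters was 0.9965 to 0.9982 within groups and 0.9946 to 0.9985 between groups. Of 7 osteocyte markers, Pdpn and Gja1 lay above the median level of all genes, while Dmp1, Sost, Mepe, Phex and Fgf23 lay below it, and none passed in any comparison. Of the marker lists of other cell types, 2 genes passed. The macrophage gene Cd68 averaged 9.78 ± 0.19 in μ-g, 9.89 ± 0.09 in 1-g, 9.24 ± 0.15 in 2-g and 9.64 ± 0.19 in control (SD, n = 3), and rose by 0.55 in set 4 (adjusted p = 0.0247) and fell by 0.66 in 2-g v.s. 1-g (adjusted p = 0.0116). The other 4 macrophage markers lay below the median level, and the mean of the 5 was 6.67 to 6.83 over the arrays. The osteoblast gene Col1a1, 1 of 3 measured, averaged 10.26 ± 0.05 in 2-g and 9.85 ± 0.15 in control and rose by 0.41 in set 2 (adjusted p = 0.0177) and by 0.38 in 2-g v.s. 1-g (adjusted p = 0.0258). The part of these markers in the results on glycogen genes was not tested.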

How the data were processed

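RNA of MLO-Y4 cells in 4 groups of 3 was measured on Affymetrix arrays (Mouse Gene 1.0 ST). The log2 values of 28856 transcript clusters on 12 arrays are as the authors deposited them, after their own RMA normalization. The version of RMA and the genome build are not given in the sources used here. Background correction and summarisation are therefore those of the authors, and RMA puts all arrays on one distribution.

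Clusters were named through the platform annotation and current mouse symbols. Of them 21789 carry 1 symbol, 1621 several and 5446 none, and 91 identifiers had no match. Each gene was taken as its cluster with the highest mean, and all 10 genes described have 1 cluster. Group means were fitted to all clusters and arrays by lmFit and eBayes (limma 3.58.1, R 4.3.3, with 8 residual and 3.90 prior degrees of freedom), and p-values were adjusted after Benjamini and Hochberg over the 19938 genes with 1 symbol. The methods of the study name LIMMA without its samples or covariates. For 3 arrays against 3, the smallest two-sided p of an exact permutation test is 0.1. Groups whose arrays do not overlap are therefore only described, and no share of all genes is given for them. The fit was also run on simulated arrays with known changes in μ-g and noise that is independent between arrays, for set 1 only. That run cannot show how the fit behaves where arrays correlate by replicate number.

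The members and the lists of other genes and markers were chosen with earlier results of these data known. Named are all 10 genes, each gene of the other lists that passed in any comparison (a few that did not pass were named after their values were seen), the 3 genes most like each member that passed the F test, and the markers. Marker lists were of osteocytes, osteoblasts, macrophages, skeletal muscle, liver, adipocytes and endothelial cells, and Cd68 and Col1a1 were the markers that passed. Listed genes without a cluster of 1 symbol are not reported here.

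Replicate numbers 1 to 3 recur in each group. Deviations from group means correlated by 0.342 on average between arrays of the same number (18 pairs) and by −0.17 between other numbers (36 pairs). Such deviations cancel out within each group, so the value for other numbers largely follows from that for the same number. It is not separate evidence of pairing. Each same-numbered pair of a comparison was above 0.1, except in set 1, where replicates 3 had 0.0179. The numbers were taken to pair the samples in the other comparisons, from these values alone, and the blocked value is given where it changes a call of the 10 genes, and for the other pathway genes as counts, with the value for those named.

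Alternatives were only the 6 arrays compared, the replicate block, genes above the median level, centring on array medians, quantile normalization, an intensity trend with a robust prior, adjustment over all clusters, the mean of clusters, a plain t-test with equal variances (named by the study for its PCR genes only), a limit of 1.5-fold with an unadjusted P, and leaving out each array.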

Additional observations from a re-analysis of the deposited data

How the results depend on the processing

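The number of the 10 genes that passed was followed for the 6 comparisons and the F test, and the change of each gene for all comparisons but μ-g v.s. 1-g. The counts stayed within 1.5 times of those given, for the filter on dim genes, centring, quantile normalization, the intensity trend, the adjustment over all clusters and the mean of clusters. The filter on dim genes left out Ppp1r3c and Pygm, and with it Pygl (adjusted p = 0.0426) and Slc37a4 (0.0412) passed in set 2 and Gbe1 in set 4 (0.047) and 2-g v.s. 1-g (0.0426). With only the 6 arrays of the comparison, the counts were 0 in set 1, 1 in set 2 (Gys1) and 0 in set 3, where 0, 151 and 0 of all 19938 genes passed, and 6 in 2-g v.s. 1-g (252 genes), with Gbe1 at 0.0327. The plain t-test after Benjamini-Hochberg left 0 in set 1, 0 in set 2, 0 in set 3, 1 in set 4 (Gys1) and 1 in 2-g v.s. 1-g (Pgm1), where 0, 0, 1, 15 and 8 of all genes passed, and at an unadjusted P under 0.05 it took 4, 4, 4, 6 and 6 of the 10 and 1976, 2673, 1671, 2688 and 2407 of all genes. Above 1.5-fold at an unadjusted P under 0.05 there was 1 gene in set 1 (Pgm1) and 0 in set 3. With the replicate number as a block the count of set 3 was 5. In set 1, where the numbers did not pair the samples by the rule used, the block gave 5, with Gbe1 at an adjusted p of 0.0404. For the 10 genes it changed no call other than these and those given with the results. The share of all genes that passed with the block in set 1 is not given, so counts there have no background. Of the 54 other pathway genes the block passed 5 in set 1 (Gaa, Phka1, Prkaa2, Pgm2l1 and Uggt1, all of them up), against 1 without it. The cause of these differences was not tested, but fits on 6 arrays have fewer arrays for the spread, and the t-test shares no spread between genes.

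With each of the 12 arrays left out in turn, the counts were 0 to 4 in set 1, 1 to 4 in set 2, 0 to 4 in set 3, 5 to 6 in set 4, 4 to 6 in 2-g v.s. 1-g, 0 to 0 in μ-g v.s. 1-g and 4 to 6 by the F test, where 4 was found without any one of the 2-g arrays. No change that passed turned its sign under any alternative. Of changes that did not pass, quantile normalization turned Pgm2 to −1e-04 in set 1 and −0.0174 in set 3 and Pygb to 0.0252 in 2-g v.s. 1-g, and centring turned Pygm to 0.002 in set 3. Leaving out arrays gave ranges that cross 0 for Pgm2 in set 1 (−0.0267 to 0.0927) and set 3 (−0.0478 to 0.0666), Pygm in set 2 (−0.032 to 0.053), set 3 (−0.0297 to 0.0234) and 2-g v.s. 1-g (−0.0302 to 0.0548), Gbe1 in set 2 (−0.0129 to 0.3007), Ppp1r3c in set 3 (−0.1411 to 0.0391), Ugp2 in set 3 (−0.0041 to 0.1111), set 4 (−0.0573 to 0.0062) and 2-g v.s. 1-g (−0.0126 to 0.1026) and Pygb in 2-g v.s. 1-g (−0.0673 to 0.0479). The arrays give no depth, and the 3 arrays of a group limit what can be seen.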
